A study of Homo sapiens with 12 samples.

Results

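The 32 genes described here are the Rel family subunits that make up the transcription factor NF-kappaB, its inhibitors and co-regulators, adaptors of the pathway, and chemokines, cytokines and other genes that NF-kappaB is known to induce. They were taken by symbol from the 2 expression tables, which hold 19423 genes each, and 28 of the 32 had a row in both. IL1A, IL1B, CSF2 and CSF3 were not analysed here. The tables hold A375, an established line of human melanoma, and 253J, an established line of human bladder carcinoma, and in each of the 2 the uptake of 2.4 µm fluorescent beads was used to split the cells by flow cytometry. In each line the positive cells had held at least 1 bead after 24 h, the negative cells had held none, and each branch was sorted 5 times, always keeping the cells that behaved as before. The 4 groups are A375 positive, A375 negative, 253J positive and 253J negative, with 3 poly(A) RNA-seq libraries each, and both branches of a line share its parental culture, bead exposure and regrowth between sorts. Whether libraries of the same branch stem from different cultures is not said in the labels, so the p-values measure only the spread between these libraries, which may be technical, and what sets 2 sorted branches apart for reasons other than uptake cannot be told apart from uptake itself.

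In resting cells NF-kappaB dimers are held in the cytoplasm by inhibitors such as IκBα (NFKBIA). Signals from receptors of the tumour necrosis factor and interleukin-1 families lead to the loss of these inhibitors, and the freed dimers enter the nucleus and switch on chemokine, adhesion and survival genes together with several of the inhibitors themselves. In many melanomas and carcinomas the neutrophil-attracting chemokines CXCL1, CXCL2, CXCL3 and CXCL8 are made by the tumour cells.

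Levels are normalized read counts, that is, read counts divided by a size factor computed within each line, so they are comparable between libraries of one line and not between lines. The libraries held 14576506 to 17916519 reads. A log2 fold change is the mean log2(value + 1) of positive less that of negative libraries, so changes of genes with few reads are understated. A gene was tested where its mean over the 6 libraries of a line reached 10, and it was called changed at an adjusted p under 0.05 (limma with Benjamini-Hochberg adjustment over all genes tested in that line). The labels also number the libraries, and the numbers form a low set (12 or lower) and a high set (19 or higher), whose meaning the labels do not state. Libraries of one branch differed far more between the sets (7.17 to 17.1 by chi-square over its degrees of freedom) than within a set (1.25 to 1.63). In 253J each branch has 2 low-numbered libraries and 1 high-numbered library. In A375 the low set holds positive replicates 1 and 2 with negative replicate 1, so number set and branch are unbalanced there. A fit within one set of A375 therefore sets 1 library of a branch against 2 of the other and assumes that the lone library varies like that pair, so differences of single genes within the sets are given there as values without a test. Leukocyte markers, which would mark blood cells, were low in every library, with a sum over the 6 of 10 markers that have a row of 8.2 to 38.6 in A375 positive and 10 to 40.5 in A375 negative libraries, and of 35.4 to 42.8 in 253J positive and 22 to 47.5 in 253J negative libraries. The melanocyte antigens MLANA and PMEL were at 41.9 to 94 and 2458.6 to 4505.6 in A375, and the epithelial keratins KRT8 and KRT18 at 7961.9 to 10302.8 and 14851.1 to 21858.3 in 253J. None of the 6 leukocyte markers reached a mean of 10 in A375, and ITGAM alone did in 253J, at 12 to 31.

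The lines differed in which members they expressed at a mean of at least 10. In 253J this held for 27 members and in A375 for 22, and all 22 were among the 27. The 5 members that reached it in 253J alone were CXCL2, CXCL3, the monocyte chemokine CCL2 and the cytokines IL6 and IL11. CCL2 stood at 2146.4 to 3689.8 in 253J and at 1 to 2.8 in A375, where IL6 lay between 2 and 9, IL11 between 0.9 and 6.9, CXCL2 between 1 and 9.5 and CXCL3 between 5.9 and 13.5. PTGS2, the inducible cyclooxygenase, was under 10 in both lines, with 2 to 6.2 in A375 and 0 reads in all 6 libraries of 253J. Per kilobase of exon, the highest mean level among the members in 253J was that of CCL2 (1375 normalized reads per kilobase), then CXCL8 (868), NFKB2 (655), LIF (628) and ICAM1 (523). In A375 the order began with the adhesion receptor ICAM1 (596), then LIF (380), CXCL1 (331), RELA (306) and BIRC2 (239). The place of CXCL1 depended on the number set, since it averaged 513 per kilobase in the 3 low-numbered libraries, second to ICAM1, and 149 in the 3 high-numbered ones, in place 10 of 22. These orders are descriptions of means over 6 libraries, and neighbours such as NFKB2 and LIF in 253J, or LIF and CXCL1 in A375, lie closer than the spread of either gene over its libraries.

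In 253J the chemokine genes CXCL8 and CXCL2 were higher in bead-positive cells, by 2.15-fold and 1.40-fold, and CXCL1 and the cytokine gene LIF were higher in each positive library than in any negative one without passing the test. CXCL8, CXCL1, CXCL2 and CXCL3 encode ligands of the receptors CXCR1 and CXCR2 on neutrophils, and their genes lie within 359 kb on chromosome 4. The count of members called, 2 of 27, both higher, compares with 1.09% of all genes tested in 253J, of which 0.529% were higher. The median log2 fold change of the 27 members was 0.08, against 0.00 over all genes, with 18 above and 9 below 0.

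The 4 chemokine promoters are shown because the NF-kappaB motif GGAATTTCC, in capitals with any overlapping match of the 10-letter NF-kappaB consensus, stands at nearly the same distance from the start in each. The sequences are the 160 bases before the start in the RefSeq promoter table (GRCh38.p14), 5′ to 3′ on the gene's strand, for CXCL8 at chr4:73740409-73740568 (plus strand), CXCL1 at chr4:73869233-73869392 (plus), CXCL2 at chr4:74099196-74099355 (minus) and CXCL3 at chr4:74038690-74038849 (minus).
CXCL8: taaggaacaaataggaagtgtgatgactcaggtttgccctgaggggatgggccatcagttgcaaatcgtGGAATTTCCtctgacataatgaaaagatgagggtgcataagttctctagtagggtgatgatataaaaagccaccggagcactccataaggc
CXCL1: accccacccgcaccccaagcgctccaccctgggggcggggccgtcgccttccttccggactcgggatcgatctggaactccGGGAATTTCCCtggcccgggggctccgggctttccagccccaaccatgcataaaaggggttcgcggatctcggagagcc
CXCL2: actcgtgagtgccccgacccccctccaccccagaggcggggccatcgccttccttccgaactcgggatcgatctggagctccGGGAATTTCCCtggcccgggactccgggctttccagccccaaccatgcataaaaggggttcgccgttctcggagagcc
CXCL3: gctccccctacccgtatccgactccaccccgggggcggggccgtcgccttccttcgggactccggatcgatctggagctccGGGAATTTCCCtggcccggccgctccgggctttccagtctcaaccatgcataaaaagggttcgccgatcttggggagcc
The motif begins 91 bases before the start of CXCL8, 78 before CXCL1, 77 before CXCL2 and 78 before CXCL3. Searched on both strands over 250 bases before the start, GGAATTTCC occurred in 23.7% of the 38 promoters that the table holds for 26 members, against 0.413% of all 35116 promoters. The consensus, which overlaps it in many promoters, occurred in 36.8% of the 38 and in 9.96% of all. Counted by gene, 9 of the 26 members had the first motif and 12 the consensus in at least 1 promoter. LIF, CCL2, CSF1, CSF3, RELB and NFKBIE are not among the 26. The members were chosen as genes of the NF-kappaB pathway or known to be induced by it, so these shares say nothing about bead uptake. Promoters of CXCL1, CXCL2 and CXCL3, alike over much of the length shown, are counted separately. A match describes the letters and does not show binding.

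CXCL8 (ENSG00000169429, chr4:73740506-73743716 on GRCh38) had 2890.3, 3015.1 and 2160.6 normalized reads in 253J positive libraries, against 1429.8, 1401.4 and 950.2 in 253J negative ones. The lowest positive library lay above the highest negative one. The log2 fold change was 1.10 ± 0.17 (SE; 95% interval 0.71 to 1.49; adjusted p = 0.0223). Within the low-numbered libraries the difference was 1.06, and between the single high-numbered library of each branch it was 1.18. Leaving out 1 library at a time gave adjusted p-values of 0.00412 to 0.151, with log2 fold changes of 0.91 to 1.25, and leaving out positive replicate 1 (0.139), negative replicate 2 (0.0607) or positive replicate 2 (0.151) ended the call.

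CXCL2 (ENSG00000081041, chr4:74097035-74099293) had 498.3, 578.8 and 491.2 normalized reads in 253J positive libraries, against 385.4, 356.9 and 378.3 in negative ones, with no overlap. The log2 fold change was 0.48 ± 0.09 (SE; adjusted p = 0.0376), at 0.53 within the low and 0.38 within the high sample numbers. It stayed called in 1 of 6 fits that left out a library, the one without negative replicate 3 (0.0230), with an adjusted p of up to 0.190 in the others.

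CXCL1 (ENSG00000163739, chr4:73869393-73871242) had 433.1, 436.5 and 361.3 normalized reads in 253J positive libraries, against 292.9, 305.1 and 211.7 in negative ones. The groups did not overlap, and the log2 fold change of 0.62 (95% interval 0.28 to 0.95) had an adjusted p of 0.0994. With the replicate number as a block, which takes out the difference between libraries of different numbers, CXCL1 passed with an adjusted p of 0.000161 (limma), and DESeq2 without the block gave 0.0106. It was called in 6 of 19 alternative fits. Among these, 1 of the 6 that left out a library called it, with adjusted p-values of 0.0450 to 0.406 (limma). CXCL3, at lower depth, had 37.4, 40.1 and 39.6 in positive libraries and 32.8, 35.2 and 35.1 in negative ones, and its difference of 0.18 had an interval of -0.18 to 0.54. In all 4 genes each positive library lay above each negative one, an order that 10.4% of all genes tested in 253J shared, and CXCL8 and CXCL2 were called. The other 2 chemokines of the list, CCL2 and CCL20, overlapped between the branches. Transcripts of CXCL1, CXCL2 and CXCL3 share 5.73%, 9.24% and 5.26% of their 50-base windows with another of the 4 and those of CXCL8 share 0, so a small part of the reads of the first 3 could have been split between them or dropped. Other genes tested within 500 kb of the cluster, looked up after the values had been seen, had log2 fold changes of 0.02 (ANKRD17), 0.42 (AFP), 0.16 (RASSF6), 0.03 (MTHFD2L) and 0.20 (AREG) in 253J, and none was called.

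**Figure D1:**
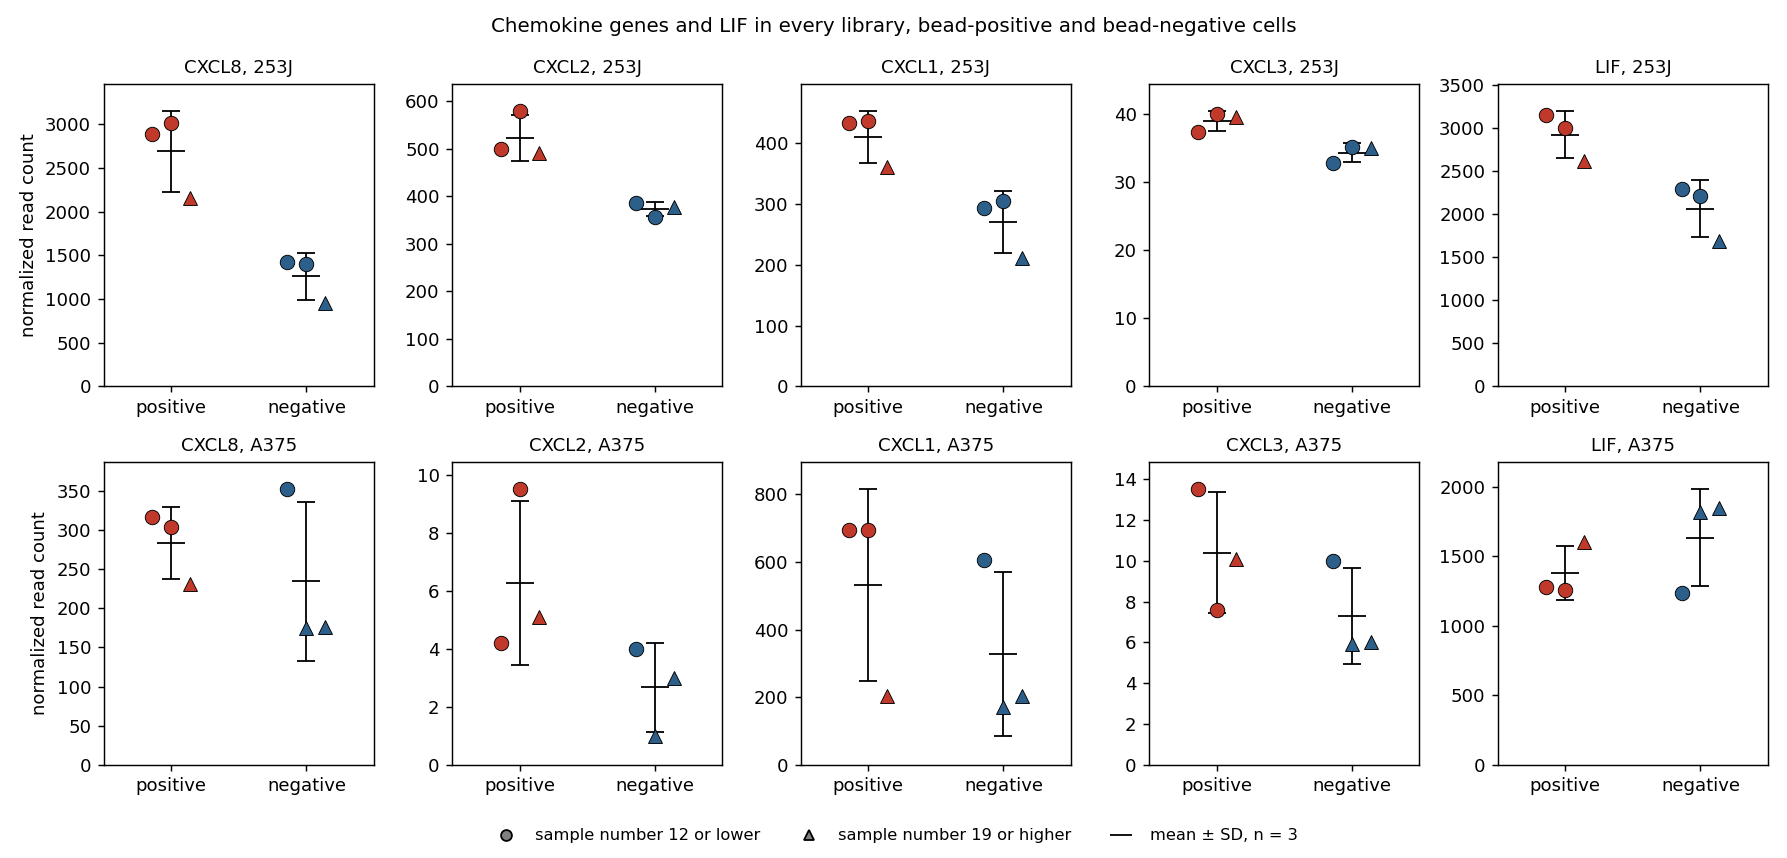
Normalized read counts (y axis, from 0) of CXCL8, CXCL2, CXCL1, CXCL3 and LIF in each library of 253J (top) and A375 (bottom), positive left of negative; circles are low and triangles high sample numbers, and bars are the mean ± SD of 3 libraries. In 253J the 5 genes do not overlap between branches, whereas CXCL1 in A375 splits by sample number, at 606.4 to 694.5 in low-numbered and 172.1 to 204.1 in high-numbered libraries.

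Among the cytokine genes, LIF (leukaemia inhibitory factor, an IL-6 family cytokine; ENSG00000128342, chr22:30240447-30246851) had 3143.7, 2999.3 and 2617.3 normalized reads in 253J positive libraries, against 2294.1, 2205.8 and 1689.7 in negative ones. These groups did not overlap, and the log2 fold change was 0.51 (95% interval 0.24 to 0.78; adjusted p = 0.0962 by limma). LIF passed with the replicate block (adjusted p = 1.16e-05, limma) and with DESeq2 without it (0.00599), at 0.45 within the low and 0.63 within the high sample numbers. It was called in 6 of 19 alternative fits, and in 1 of the 6 of these that left out a library (0.0302 to 0.386, limma). Exons of LIF overlap antisense genes, and whether the counting used strand is not known. IL6, the founding cytokine of that family, averaged 42.7 ± 12.3 in positive and 30.4 ± 4.16 in negative libraries (SD, n = 3 each). Its interval ran from -0.11 to 1.00. Its exons share 428 bases with an antisense gene and 46 with STEAP1B on the other strand, whose reads cannot be told apart without strand. IL6 lies on chromosome 7, whose 574 protein-coding genes tested in 253J had a median of 0.12, with 21.3% lower in positive, and the part of this in its value was not tested. IL11 averaged 12.5 ± 2.63 in positive and 15.5 ± 2.58 in negative libraries, with an interval of -0.92 to 0.33. CSF1, which supports macrophages, averaged 540 ± 69.0 in positive and 595 ± 42.5 in negative libraries, with an interval of -0.38 to 0.09.

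CCL2 had 3237.8, 3689.8 and 2146.4 normalized reads in 253J positive libraries, against 2483, 2563.6 and 2260.6 in negative ones. The low-numbered positive libraries lay above all others and the high-numbered positive library below them, with a log2 difference of 0.45 within the low numbers and -0.07 within the high numbers. CCL20, a chemokine for CCR6-bearing lymphocytes, ranged from 19 to 28.4 in positive and 14.1 to 25.1 in negative libraries of 253J.

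Of the other induced genes in 253J, SOD2, the mitochondrial superoxide dismutase, averaged 1074 ± 93.2 in positive and 918 ± 61.6 in negative libraries without overlap, and ICAM1 averaged 2106 ± 341 in positive and 1767 ± 219 in negative libraries. Neither passed, with adjusted p-values of 0.283 and 0.458 (limma). Exons of both overlap other genes. SOD2 shares 845 bases with another entry named SOD2 on the same strand, whose reads strand would not separate. It shares 298 bases with WTAP, and ICAM1 shares 815 with an antisense gene, whose reads cannot be told apart without strand. SOD2, CXCL1, CXCL2, CXCL3, CXCL8 and LIF were the 6 members whose 3 positive libraries all lay above the 3 negative ones, and no member had the reverse order; over all genes tested, 20.2% did not overlap and 10.4% were higher in positive. With the replicate block 8 members were called, all higher, against 14% of all genes (7.28% higher): CXCL8, CXCL2, CXCL1, LIF, CCL2, ICAM1, SOD2 and TRAF1. The block takes out the split between number sets, and with same-set libraries averaged and the set as a block, an alternative chosen after seeing the data, 6 of those 8 were called (without CCL2 and SOD2) against 6.55% of all genes. Averaged and without a block, none was called by limma, against 0.148% of all genes, and 4 had an unadjusted p under 0.05, as had 5.53% of all genes. Other fits gave 2 members with edgeR (1.12% of all genes) and 4 with DESeq2 (2.08%), all higher. The number set as a block gave 8 (18.6%) and the low sample numbers alone 12 (21%), again all higher. Over all genes the calls went both ways, at 1387 higher and 1258 lower with that block. In the low numbers alone they were 1431 higher and 1546 lower.

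None of the Rel family subunits was called in 253J by limma, edgeR or DESeq2 over all libraries. NFKB1, which encodes p105 and its product p50, averaged 1429 ± 219 in positive and 1435 ± 33.5 in negative libraries, with an interval of -0.26 to 0.22. NFKB2, which encodes p100 and p52, averaged 2956 ± 345 in positive and 2919 ± 477 in negative libraries, with an interval of -0.27 to 0.32. RELA, the transactivating p65 subunit, had an interval of -0.13 to 0.25, RELB one of -0.20 to 0.37 and REL one of -0.45 to 0.19.

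The feedback inhibitors in 253J gave intervals of similar width. NFKBIA averaged 470 ± 124 in positive and 437 ± 52.1 in negative libraries, with an interval of -0.36 to 0.50. TNFAIP3, which encodes the ubiquitin-editing inhibitor A20, averaged 163 ± 37.5 in positive and 151 ± 7.71 in negative libraries, with an interval of -0.31 to 0.46. Intervals of NFKBIE, another cytoplasmic inhibitor, NFKBIZ, a nuclear co-regulator, and BCL3, likewise nuclear, ran from -0.45 to 0.20, from -0.39 to 0.27 and from -0.45 to 0.19. Among the survival and signalling genes, BIRC2 and BIRC3 encode ubiquitin ligases of TNF receptor complexes, and their differences were 0.03 and -0.11. TRAF1, an adaptor of the same complexes, had the widest interval in 253J, -0.63 to 1.77, with 162.5, 207.7 and 58.9 normalized reads in positive libraries against 114.7, 130.1 and 40.1 in negative ones. IRAK2, a kinase-like adaptor of the interleukin-1 receptor, differed by -0.01. Of the 25 members not called in 253J, 24 had intervals within ±1 on the log2 scale and 15 within ±0.5.

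**Figure D2:**
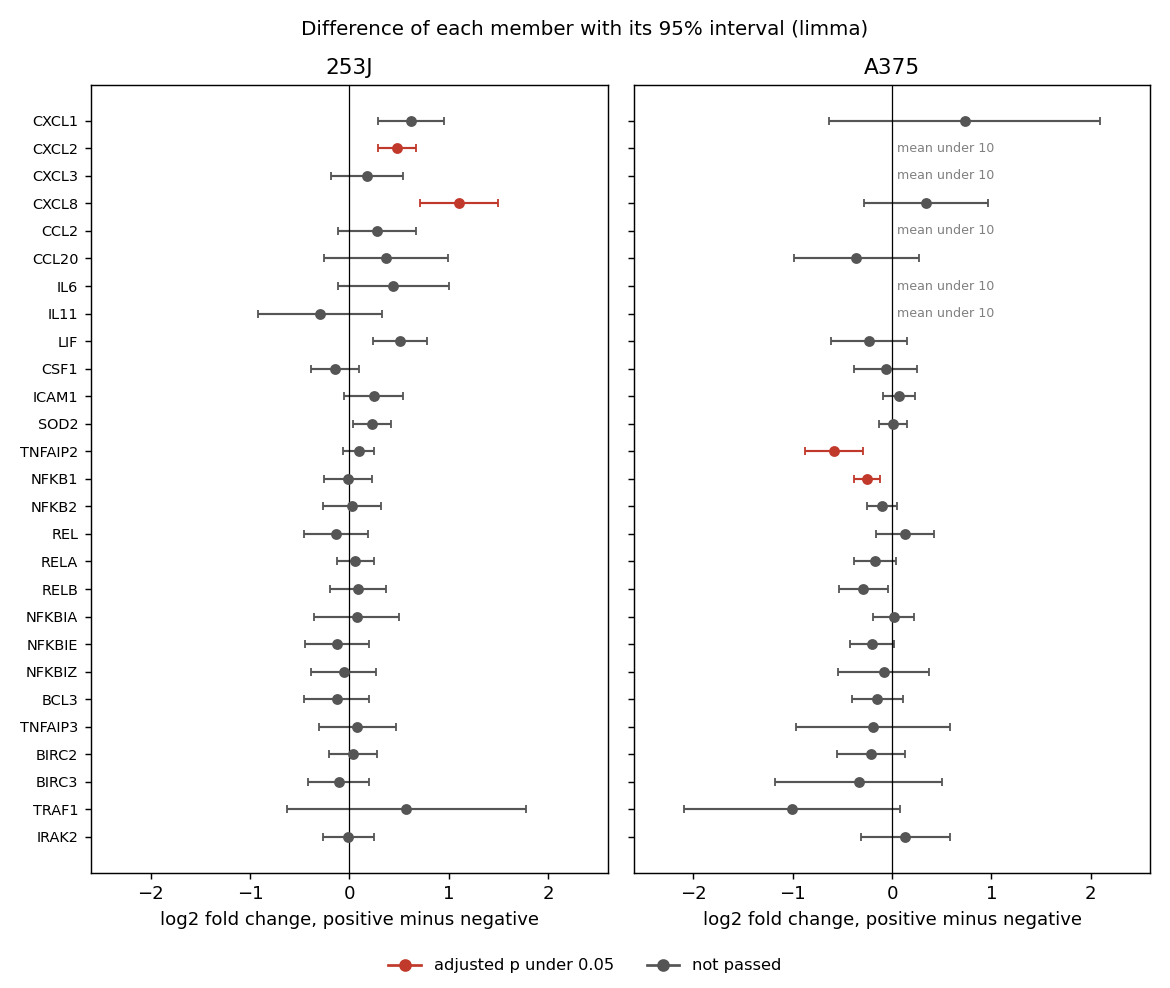
Log2 fold change, positive minus negative (x axis), of each member tested in 253J (left) and A375 (right), with its 95% interval from limma; red marks an adjusted p under 0.05. CXCL8 (1.10) and CXCL2 (0.48) lie above 0 in 253J, and TNFAIP2 (-0.58) and NFKB1 (-0.26) lie below 0 in A375, where CXCL1 and TRAF1 have the widest intervals.

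In A375 the members called were TNFAIP2 and NFKB1, both lower in bead-positive cells, by 1.50-fold and 1.19-fold. TNFAIP2 is a gene induced by tumour necrosis factor, and its product takes part in membrane protrusion and nanotube formation. The count of 2 of 22 compares with 10.2% of all genes tested in A375 (5.26% lower), so the members were called at about the rate of genes in general. Their median log2 fold change was -0.16, against -0.00 over all genes, with 7 above and 15 below 0. REL, which was higher, and TNFAIP2, NFKB1 and NFKB2, which were lower in positive, were the 4 of the 22 tested members whose groups did not overlap, against 29.5% of all genes tested. CXCL2 and CCL2, under the mean of 10, were also higher in each positive library than in any negative one, at 10 reads or fewer in each library. For CXCL2 the nearest values, 4.2 in positive replicate 1 and 4 in negative replicate 1, lay less than 1 read apart. The share of this order among all genes under that mean was not counted. Some lineage markers differed between the branches in A375. Of the 5 melanocytic markers tested, only TYR and DCT were called, both lower in positive libraries (log2 fold changes of -2.82 and -1.31). Of the 3 epithelial ones only KRT18 was called, also lower (-0.28, adjusted p = 0.0417 by limma). Of the 3 stromal and vascular markers tested none was called, with a median of 0.42. The summed epithelial markers were at 971.5 to 1062 in positive and 1193 to 1276 in negative libraries, and the part of these shifts in the members' values was not tested.

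TNFAIP2 (ENSG00000185215, chr14:103123442-103137439) had 82, 76.6 and 93.2 normalized reads in A375 positive libraries, against 118.7, 121.7 and 138.4 in negative ones. The groups did not overlap, and the log2 fold change was -0.58 ± 0.13 (SE; 95% interval -0.88 to -0.29; adjusted p = 0.0271). It was -0.58 within the low sample numbers, with 1 negative library, and -0.47 within the high ones, with 1 positive library. Of the fits without 1 library, 2 kept the call, those without positive replicate 3 (0.0213) and without negative replicate 1 (0.0302); the others gave 0.0889 to 0.115. The median over protein-coding genes of chromosome 14 was -0.01 in A375. In 253J it was 0.07, with 35.4% lower in positive, and the part of this in the difference between lines was not tested.

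NFKB1 (ENSG00000109320, chr4:102501329-102617302) had 1181.4, 1200.5 and 1162.4 normalized reads in A375 positive libraries, against 1463.2, 1442.2 and 1331.8 in negative ones. Every positive library lay below every negative one, with a log2 fold change of -0.26 ± 0.06 (SE; adjusted p = 0.0292). It was -0.30 within the low sample numbers and -0.25 within the high ones, again with 1 library in one branch. The call held in 3 of 6 fits without 1 library, and leaving out positive replicate 1 (0.107), negative replicate 2 (0.125) or positive replicate 2 (0.102) ended it.

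The upstream sequences of these 2 genes are shown beside those of the chemokines, again as 160 bases before the RefSeq start, plus strand, at chr4:102501199-102501358 for NFKB1 and chr14:103123301-103123460 for TNFAIP2.
NFKB1: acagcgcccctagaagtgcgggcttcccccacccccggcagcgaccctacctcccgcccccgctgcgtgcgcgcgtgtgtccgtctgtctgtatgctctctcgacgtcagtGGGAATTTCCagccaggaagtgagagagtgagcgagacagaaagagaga
TNFAIP2: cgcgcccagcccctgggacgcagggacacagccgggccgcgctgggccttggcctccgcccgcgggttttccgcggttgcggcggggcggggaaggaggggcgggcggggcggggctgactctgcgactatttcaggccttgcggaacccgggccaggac
In NFKB1, which is known to be under its own control, the capitals mark a match of GGAATTTCC that begins 48 bases before the start, within a match of the consensus. Another promoter of NFKB1, at chr4:102501774-102501933, held neither motif. Neither motif occurred in the 250 bases searched before TNFAIP2, which says only that these letters are not in this window.

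**Figure D3:**
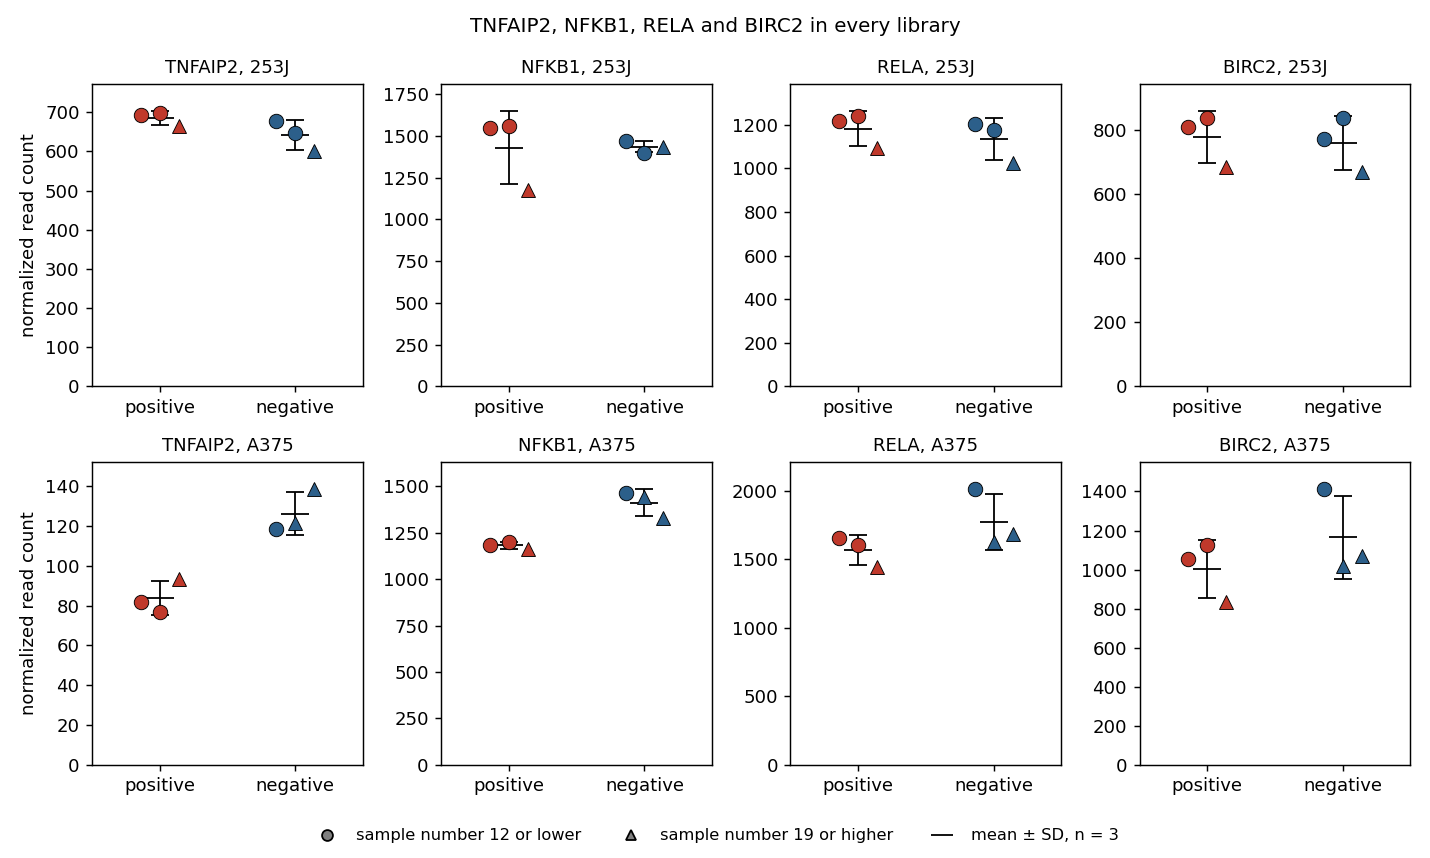
Normalized read counts (y axis, from 0) of TNFAIP2, NFKB1, RELA and BIRC2 in each library of 253J (top) and A375 (bottom), positive left of negative; circles are low and triangles high sample numbers, and bars are the mean ± SD of 3 libraries. In A375, TNFAIP2 lies at 76.6 to 93.2 in positive and 118.7 to 138.4 in negative libraries, whereas RELA and BIRC2 overlap.

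Other Rel family subunits in A375 did not pass. RELB averaged 243 ± 28.5 in positive and 296 ± 21 in negative libraries, with an interval of -0.54 to -0.04 and an adjusted p of 0.145 (limma). RELA averaged 1568 ± 111 in positive and 1771 ± 207 in negative libraries, with an interval of -0.39 to 0.04. NFKB2 averaged 656 ± 12 in positive and 705 ± 39.9 in negative libraries, with an interval of -0.25 to 0.05. REL averaged 82.3 ± 4.28 in positive and 75.2 ± 5.67 in negative libraries, with an interval of -0.16 to 0.42; it shares 5702 exonic bases with an overlapping gene. RELA and the BIRC2 and BIRC3 genes lie on chromosome 11, whose 691 protein-coding genes tested in A375 had a median of -0.27, with 89.1% lower in positive, and the part of this in their values was not tested. BIRC2 averaged 1004 ± 150 in positive and 1166 ± 214 in negative libraries of A375, with an interval of -0.55 to 0.13.

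The inhibitors in A375 gave 247 ± 13.5 in positive and 245 ± 17.0 in negative libraries for NFKBIA, with an interval of -0.19 to 0.23, and 427 ± 20.2 in positive and 493 ± 56.6 in negative libraries for NFKBIE, with an interval of -0.43 to 0.02. Intervals of NFKBIZ, BCL3 and TNFAIP3 ran from -0.54 to 0.37, from -0.41 to 0.11 and from -0.97 to 0.58. ICAM1, SOD2 and CSF1 differed by 0.07, 0.01 and -0.06, and LIF averaged 1378 ± 195 in positive and 1635 ± 346 in negative libraries, with an interval of -0.61 to 0.15. CCL20, BIRC3 and IRAK2 were low in A375, at 10.4 to 19.9, 12.2 to 36.9 and 30.7 to 45.9. Of the 20 members not called, 17 had intervals within ±1 and 9 within ±0.5.

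With the number set as a block in A375, 8 members were called, against 32% of all genes. ICAM1 was higher (log2 fold change 0.12, adjusted p = 0.0145 by limma). TNFAIP2 (-0.53), NFKB1 (-0.28), RELA (-0.25), RELB (-0.26), BIRC2 (-0.35), CSF1 (-0.18) and TRAF1 (-0.59) were lower in positive libraries, with adjusted p-values of 4.35e-07 to 0.0271. The same 8 were called when same-set libraries were averaged first and the set kept as a block, against 29.1% of all genes. Averaged and without the block none was called by limma, against 0.375%, and 2 had an unadjusted p under 0.05, as had 13.3% of all genes. Other fits gave 2 members with edgeR (10.3% of all genes), 2 with DESeq2 (10.4%) and 3 with the replicate block (17.2%). Counts within 1 number set are left out, since 1 branch has a single library there.

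Several members differed more between the number sets than between the branches. In A375, CXCL1 had 694.5, 694.4 and 202.7 normalized reads in positive libraries, against 606.4, 172.1 and 204.1 in negative ones. The 3 low-numbered libraries were high whatever their branch, and with the branch in the fit the low numbers exceeded the high ones by 1.73 on the log2 scale (adjusted p = 5.99e-18, limma), whereas the branch difference with the set as a block was 0.15 (adjusted p = 0.119). CXCL8 in A375 had 316.6, 303.7 and 231.1 in positive libraries, against 352.1, 175.1 and 176.2 in negative ones, with a low-minus-high difference of 0.71. Its branch difference was -0.18 within the low and 0.39 within the high sample numbers, opposite in sign, and 0.11 with the block (interval -0.09 to 0.31), which averages them. TRAF1, TNFAIP3, NFKBIZ and LIF were lower in the low-numbered libraries of A375, by log2 differences of -1.27, -0.90, -0.56 and -0.46.

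In all, 12 of 22 members differed between the number sets in A375, 6 in each direction, against 36.8% of all genes. In 253J it was 18 of 27, with 16 higher and 2 lower in the low-numbered libraries, against 32.6% of all genes (18.2% higher in low numbers). The 2 lower were NFKBIZ (-0.41) and IRAK2 (-0.28), and CXCL8, NFKBIA, CCL2 and CXCL1 were among the higher ones (0.51, 0.51, 0.42 and 0.38). TRAF1 differed by 1.60 in 253J and by -1.27 in A375; this difference between the lines was not tested. CXCL2, CXCL3 and TNFAIP2 differed between the sets of 253J by 0.05, -0.04 and 0.10 without passing.

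**Figure D4:**
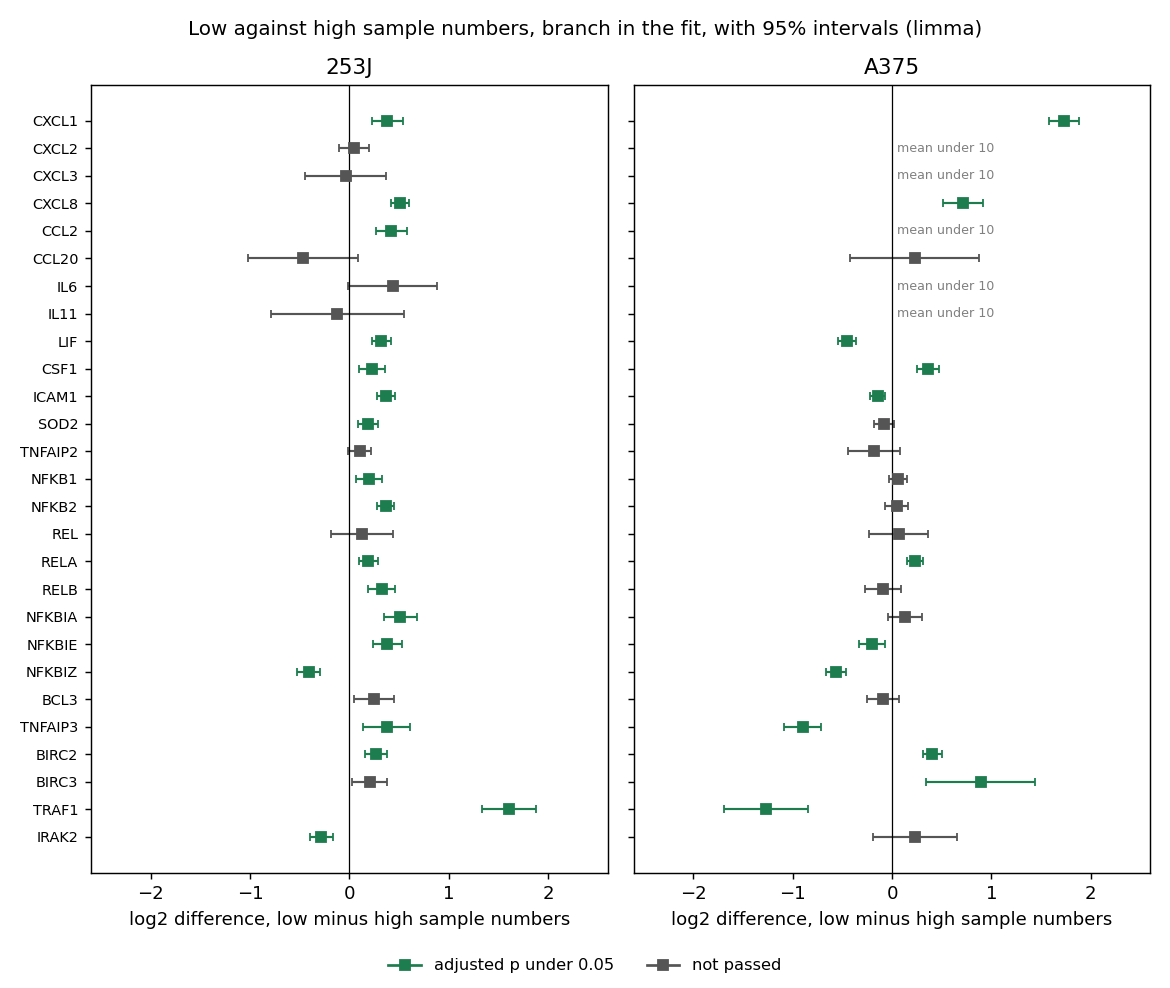
Log2 difference between low-numbered and high-numbered libraries (x axis, low minus high, branch in the fit) of each member tested in 253J (left) and A375 (right), with 95% intervals from limma; green marks an adjusted p under 0.05. CXCL1 stands at 1.73 in A375 and 0.38 in 253J, and TRAF1 at -1.27 in A375 and 1.60 in 253J.

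The branch difference itself was compared between the lines as the A375 difference minus the 253J difference, over the 22 members tested in both. TNFAIP2 was the member called, at -0.68 ± 0.13 (SE; 95% interval -0.97 to -0.39; adjusted p = 0.0101 by limma), against 6.16% of all genes called. It was lower in positive A375 cells (-0.58), and in 253J it had 691.8, 697.9 and 663.7 normalized reads in positive libraries against 678.3, 647.1 and 601 in negative ones, a difference of 0.09 with an interval of -0.06 to 0.25. The call held in all 12 fits that left out 1 library (adjusted p-values of 0.00485 to 0.0353) and in 12 of the 14 other alternatives. It was lost in the high sample numbers alone (-0.62), where 3 of the 4 groups have a single library, and with same-set libraries averaged (-0.63, adjusted p = 0.253). CXCL8, called in 253J alone, was not called in the difference between lines (-0.76, interval -1.53 to 0.01, adjusted p = 0.248), so its branch difference is not shown to differ. With the replicate block it passed (0.0125). LIF gave -0.74 (interval -1.23 to -0.25) with an adjusted p of 0.0726, and 0.00147 with the replicate block. In A375 this block joins libraries of different number sets for replicate 2, whose deviations correlated at -0.27. Other fits of this difference gave 1 member with edgeR (6.2% of all genes), 2 with DESeq2 (8.12%) and 5 with the replicate block (16.2%). The number set as a block gave 11 (28%), and 7 when same-set libraries were averaged first (17.4%). Averaged without a block, 0 were called (0.68%), with 1 at an unadjusted p under 0.05 against 10.4% of all genes. Each member called in these fits had the A375 difference below that of 253J. Over all genes the calls went both ways, with 1831 below and 1673 above when the set was a block.

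Beyond the members, 6 lists with 146 genes of the pathway (receptors, adaptors and kinases, other inhibitors, other induced genes, cytokine receptors and cytokine signalling) gave few calls. In A375, 2 of 95 tested genes were higher and 2 lower, against 10.2% of all genes called. At an unadjusted p under 0.05, 7 were higher and 13 lower there, against 24.6% of all genes, and DESeq2 called 2 higher and 5 lower (10.4% of all genes). In 253J 1 of 104 was higher and 0 lower by limma, against 1.09%, while 12 were higher and 8 lower at an unadjusted p under 0.05, against 13.6% of all genes, and DESeq2 called 2 higher and 0 lower (2.08%). With the replicate block the 253J count was 24, with 16 higher and 8 lower, against 14% of all genes. The genes called in A375 were the hyaluronan-binding TNFAIP6 and the interleukin-1 receptor IL1R1, which rose, and the cytokine IL24 and the stress-induced IER3, which fell.

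IL24, an IL-10 family cytokine first known as a melanoma differentiation gene, had 2493.6, 2410.4 and 3858.1 normalized reads in A375 positive libraries, against 10238.4, 15189.5 and 15194.7 in negative ones. The groups were far apart, with a log2 fold change of -2.22 ± 0.21 (SE; adjusted p = 0.00119), and the call held in all 6 fits without 1 library. It averaged 7 ± 3.52 in positive and 5.4 ± 2.13 in negative libraries of 253J. Beside it, the melanocytic enzyme genes TYR and DCT were lower in A375 positive cells, with log2 fold changes of -2.82 and -1.31, and the sum over the melanocytic markers was 10343 to 13868 in positive and 13028 to 25314 in negative libraries; the part of this in the IL24 value was not tested.

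TNFAIP6 had 76.8, 96.5 and 116.5 normalized reads in A375 positive libraries, against 19, 20.8 and 21.9 in negative ones. It was 4.47-fold higher without overlap (adjusted p = 0.000912), and the call held in all 6 fits without 1 library. IL1R1 averaged 216 ± 30.9 in positive and 138 ± 13.2 in negative libraries of A375, a log2 fold change of 0.63 (adjusted p = 0.0227), and its call held in 3 of 6 such fits. In 253J it averaged 174 ± 7.83 in positive and 117 ± 29.8 in negative libraries, a difference of 0.59 that did not pass (adjusted p = 0.161) but did with the replicate block (0.0107). IER3 averaged 1846 ± 159 in positive and 2503 ± 185 in negative libraries of A375 (log2 fold change -0.44, adjusted p = 0.0144; held in 2 of 6 fits without 1 library), and 2569 ± 451 in positive and 1865 ± 194 in negative libraries of 253J (0.45, adjusted p = 0.171; 5.41e-05 with the block). The difference between lines passed by limma for IER3 (-0.89, adjusted p = 0.00828), TNFAIP6 (1.92, adjusted p = 0.00394) and TAX1BP1 (-0.45, adjusted p = 0.0331). It did not pass for IL1R1 (0.04, adjusted p = 0.947). The gene called in 253J was TAX1BP1, a partner of A20, with 1517.3, 1589.8 and 1649.1 in positive libraries against 1257.4, 1222 and 1194 in negative ones (log2 fold change 0.37, adjusted p = 0.0223), and its call held in 1 of 6 fits without 1 library. It lies on chromosome 7, with the median of 0.12 in 253J given beside IL6, and the part of that in its value was not tested.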

How the data were processed

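Poly(A) RNA-seq of 12 libraries, 3 per line and branch, was analysed from 1 table per line. The deposited values are a signal, namely gene counts that the authors divided by a size factor per library and rounded, and the submitters' processing notes name GRCh38 with DESeq2, HTSeq, STAR 2.4.2a and cutadapt. The annotation and strand setting of the counting are not given in the sources used here. Whole reads were recovered from the step between low values, within 0.055 for at least 99.98% of the values of each library, and the steps matched median-of-ratios factors. Gene identifiers were matched to GENCODE 29 (99.6%).

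Because the values are normalized, log2(value + 1) was tested with limma-trend (R 4.3.3, limma 3.58.1) in place of the test planned for counts. Genes reaching a mean of 10 in a line entered, without covariates, and p-values were adjusted by Benjamini-Hochberg (threshold 0.05). edgeR 4.0.16 and DESeq2 1.42.0 on the recovered reads, other pseudocounts, filters and scalings, blocks by replicate or number set, number sets alone, and leaving out each library were alternatives. Scripts were tested on simulated data. The members and lists were chosen with earlier results of these data known. Named are all members, and of each pathway list up to 6 called genes per line with the smallest p.

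Same-numbered libraries of 253J deviated together from their group means, with correlations over genes of 0.29, 0.19 and 0.50 for replicates 1, 2 and 3. Replicates 1 and 2, both low-numbered, were correlated to a like degree across numbers (0.21 and 0.17). The replicate numbers are therefore not shown to pair the libraries, and the replicate block was used only as an alternative fit.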

Additional observations from a re-analysis of the deposited data

Results flagged for a closer look

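The positive-minus-negative difference of TNFAIP2 was not the same in the lines, by a test that compared this difference between them. The A375 difference minus the 253J difference was -0.68 on the log2 scale (adjusted p = 0.0101, limma over 12509 genes), and all 3 A375 positive libraries lay below the 3 negative ones, while the groups of 253J overlapped. Number sets are unbalanced between the branches of A375, and with the set as a block the difference was -0.62 and stayed called. It was no longer called in the high sample numbers alone (-0.62), where most groups have a single library, or with same-set libraries averaged (-0.63, adjusted p = 0.253, limma). No outlier test was made, since each group has 3 libraries.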

How the results depend on the processing

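The number of members called depended mostly on how the number sets were treated, as did the number over all genes. In A375 the count of members was 2 of 22 (10.2% of all genes called) and became 8 with the set as a block (32%). It was 0 with same-set libraries averaged (0.375%) and 8 averaged with the set as a block (29.1%). Without 1 library it was 0 to 6, against 3.45% to 13.3% of all genes. In 253J it was 2 of 27 (1.09%) and became 0 without a filter on low values (0.299%) and 4 with DESeq2 (2.08%). It was 8 with the replicate block (14%), 8 with the set as a block (18.6%) and 12 in low sample numbers alone (21%). Averaged it was 0 (0.148%), and 6 averaged with the set as a block (6.55%). Without 1 library 0 to 4 were called, against 0.282% to 2.6% of all genes. For the difference between lines it was 1 of 22 (6.16%), and 2 with DESeq2 (8.12%). It became 5 with the replicate block (16.2%) and 11 with the set as a block (28%). Averaged it was 0 (0.68%), and 7 averaged with the set as a block (17.4%). It was 1 to 2 without 1 library, against 3.55% to 7.32% of all genes. Of the pathway lists, A375 had 4 calls, and 7 with DESeq2, 18 with the replicate block, 27 with the set as a block, 24 and 13 in low and high sample numbers alone, 1 averaged, 26 averaged with the set as a block, and 2 to 9 without 1 library. In 253J there was 1 among 104 tested genes (1.09%), and 0 without a filter (0.299%) and 2 with DESeq2 (2.08%). It had 24 with the replicate block (14%), 31 with the set as a block (18.6%) and 28 in low sample numbers alone (21%). Averaged it had 0 (0.148%), and 14 averaged with the set as a block (6.55%). Without 1 library 0 to 1 were called, against 0.282% to 2.6% of all genes. Other pseudocounts, TMM or equal totals and edgeR left the member counts at 2, 2 and 1.

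Signs turned, with a call, for BIRC3 (0.10) and NFKB1 (0.12) in 253J within low sample numbers. They also did for CXCL1 between lines (-0.46 with the set as a block, -0.50 averaged with the block). Within low sample numbers CXCL1 gave -0.34, where A375 has 1 negative library. TNFAIP3 in A375 gave 0.49 within low sample numbers, with 1 negative library, and -0.28 within high ones, with 1 positive library. The cause was not tested. In A375 the same-numbered libraries deviated together for replicates 1 and 3 (correlations of 0.41 and 0.40) and not for replicate 2 (-0.27), whose libraries fall in different number sets, and the replicate block there gave 3 members. High sample numbers alone leave 1 library per branch in 253J and no test. Where 2 libraries of a branch share a number set they may be closer than separate cultures would be, and fits with a block then give p-values that are too small. Without a filter the call of CCL2 in A375 rests on 1 to 3 reads per library.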

Other observations

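Among pathway genes outside the members, picked after their values had been seen, IL32 (a cytokine of lymphoid and epithelial cells) had 149.7, 186.6 and 76.1 normalized reads in 253J positive libraries, against 76.1, 72.1 and 29.1 in negative ones. It was 2.34-fold higher, with an adjusted p of 0.236 by limma, 7.04e-05 with the replicate block and 0.000191 with same-set libraries averaged and the set as a block. TLR4, the receptor for bacterial lipopolysaccharide, had 61.3, 55.8 and 32.4 in A375 positive libraries, against 169.6, 75.2 and 102.5 in negative ones, without overlap. Its log2 fold change was -1.17, with an adjusted p of 0.0689 by limma that became 8.54e-09 once the number set was blocked.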
